A study of Rattus norvegicus with 3 samples.

Results

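The nuclei described here are GABAergic nuclei of the rat brain that carried RNA of a set of 6 genes known from inhibitory neurons outside the striatum and cortex. They were chosen on their raw counts of unique molecular identifiers (UMIs, each standing for 1 captured RNA molecule). A barcode was selected if it had at least 500 detected genes, at least 2 UMIs over Klhl1, Glra3, Scn9a, Gabrg1, Nnat and Tmem255a with at least 2 of these genes detected, at least 1 UMI of Gad1 or Gad2, and 0 UMIs of Slc17a7, Slc17a6, Rarb, Sst and Vip. Of 44950 barcodes with at least 500 detected genes, 705 met this rule: 256 in the saline library, 289 in the LPS library and 160 in the poly(I:C) library.

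GABAergic neurons make the inhibitory transmitter GABA from glutamate with the enzymes encoded by Gad1 and Gad2 and load it into vesicles with the transporter Slc32a1. Outside the striatum and cortex such neurons populate the septum, pallidum, extended amygdala, hypothalamus, thalamic reticular nucleus and brainstem, where they control feeding, reproduction, body temperature and arousal, functions that are altered in acute infection. Type I interferon, released when cells sense viral RNA or bacterial products, acts through the receptor Ifnar1 and Ifnar2 and factors such as Stat2 and Irf9, which bind a short motif in the promoters of antiviral genes.

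The study used female wild-type Crl:CD(SD) rats aged 12 weeks. They received saline, LPS (lipopolysaccharide, an outer membrane glycolipid of Gram-negative bacteria, the ligand of Tlr4) at 5 mg/kg, or poly(I:C) (a synthetic double-stranded RNA sensed by Tlr3 and by the helicase Ifih1) at 12 mg/kg, each injected into the peritoneum. Brains were taken 7 h later, and the nuclei of 4 animals were pooled into 1 library per treatment for droplet sequencing of RNA from its 5′ end. Because each treatment is 1 library with no map from nuclei to animals, the differences given here are without a replicate check, and no test between treatments could be made. The LPS and poly(I:C) comparisons share the saline library.

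The libraries held 11211 to 25435 barcodes and 21340578 to 35532360 UMIs. The LPS library was the deepest per nucleus: barcodes with at least 500 detected genes had a median of 2548 UMIs, against 1321 with saline and 1369 with poly(I:C). Some barcode sequences occurred in more than 1 library (420 in LPS and saline, 550 in poly(I:C) and saline, 247 in LPS and poly(I:C)), but no barcode was selected in both libraries of any pair. The selected nuclei held 519751 UMIs with saline, 839823 with LPS and 251048 with poly(I:C), with medians of 1773.5, 2535 and 1380 per nucleus. Levels below are UMIs summed over the selected nuclei of a library as counts per 1e6 of their UMIs (CPM), and ranges in square brackets are exact 95% intervals that cover counting error only.

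**Figure D1:**
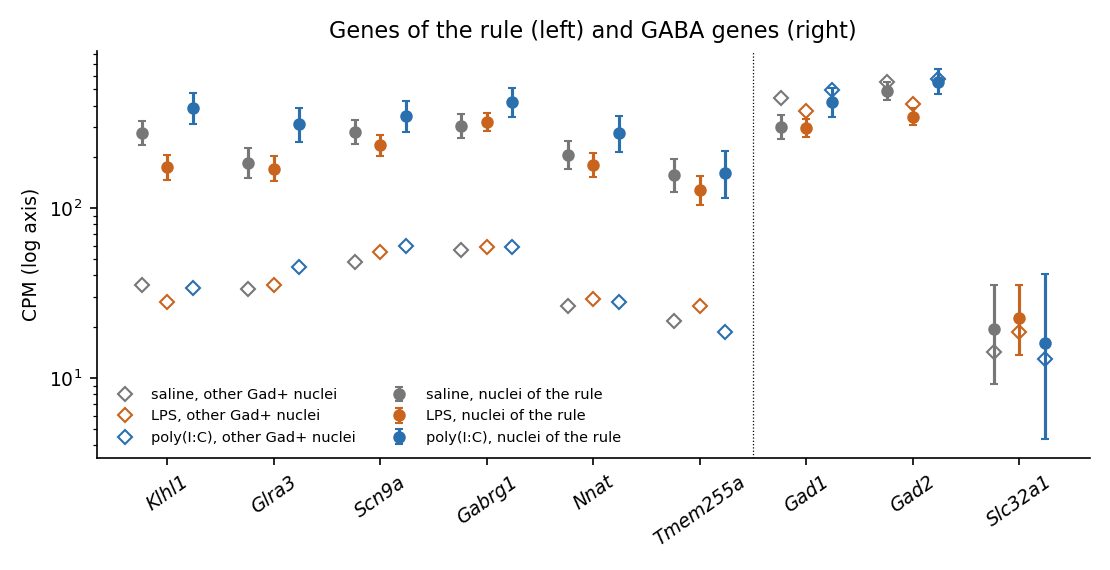
Levels (CPM, log axis) of the 6 genes of the rule and of 3 GABA genes by library; filled circles are the selected nuclei with exact 95% Poisson intervals, open diamonds the other Gad+ nuclei. The genes of the rule sit 4.29-fold to 11.4-fold above the other Gad+ nuclei because they chose the nuclei; Gad1 and Gad2 lie below them in each library, and Slc32a1 lies slightly above.

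The 6 genes were used to choose the nuclei, so their levels are a description. Klhl1, a kelch-like actin-binding protein of neurons, had 277 CPM with saline, 174 CPM with LPS and 386 CPM with poly(I:C). Glra3, a glycine receptor subunit, had 185, 170 and 311 CPM in that order. Gabrg1, a GABA-A receptor subunit found mainly outside the cortex, had 304, 320 and 418 CPM. These genes were lower in the deeper LPS library or close to saline, and higher with poly(I:C). Scn9a, a voltage-gated sodium channel, had 281, 235 and 347 CPM. The imprinted proteolipid gene Nnat had 206, 180 and 275 CPM, and Tmem255a, a membrane protein gene, had 156, 127 and 159 CPM.

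The evidence per nucleus was thin. Exactly 2 UMIs over the 6 genes were present in 125 of the 256 saline nuclei (48.8%), 103 of the 289 LPS nuclei (35.6%) and 71 of the 160 poly(I:C) nuclei (44.4%). A single Gad1 or Gad2 UMI was present in 58.2%, 48.8% and 65.6% of them. Just outside the rule, 569, 337 and 358 barcodes met every other condition with only 1 UMI over the 6 genes, and 755, 530 and 467 met all but the Gad condition. No more than 5 of the 6 genes were detected together in any saline or poly(I:C) nucleus, and all 6 were detected in 1 LPS nucleus. Klhl1 had a UMI in 39.8%, 28.4% and 37.5% of the selected nuclei (median depths 1773.5, 2535 and 1380 UMIs), against 2 of 146, 0 of 402 and 2 of 63 mature oligodendrocyte nuclei (median depths 836, 909 and 849 UMIs), a cell type that should lack it. Klhl1 is a gene of the rule, so this contrast is a description. The 0 of 402 allows a share of up to 0.913% of such nuclei with a Klhl1 UMI at that depth. Gabrg1 and Nnat, also genes of the rule, had UMIs in more of these oligodendrocyte nuclei. Gabrg1 had a UMI in 7.53%, 5.72% and 12.7% of them, Nnat in 5.48%, 1.74% and 7.94%, and Gad1 in 6.16%, 0.995% and 3.17%. The part of RNA from other cells in the UMIs that met the rule was not tested.

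The share of barcodes that met the rule moved with the depth of the library. It was 1.20% [1.06 to 1.35] with saline, 2.75% [2.45 to 3.09] with LPS and 1.22% [1.04 to 1.42] with poly(I:C), so the LPS share was 2.30 times that of saline. When every barcode was first thinned to 1000 UMIs and shallower ones were left out, the shares were 0.576% (88 of 15285), 0.763% (71 of 9310) and 0.596% (61 of 10238), and the LPS share was 1.32 times that of saline. The 3 intervals then overlapped (0.462 to 0.709, 0.596 to 0.961 and 0.456 to 0.765). The poly(I:C) share stayed close to saline at both depths, with ratios of 1.02 and 1.03.

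**Figure D2:**
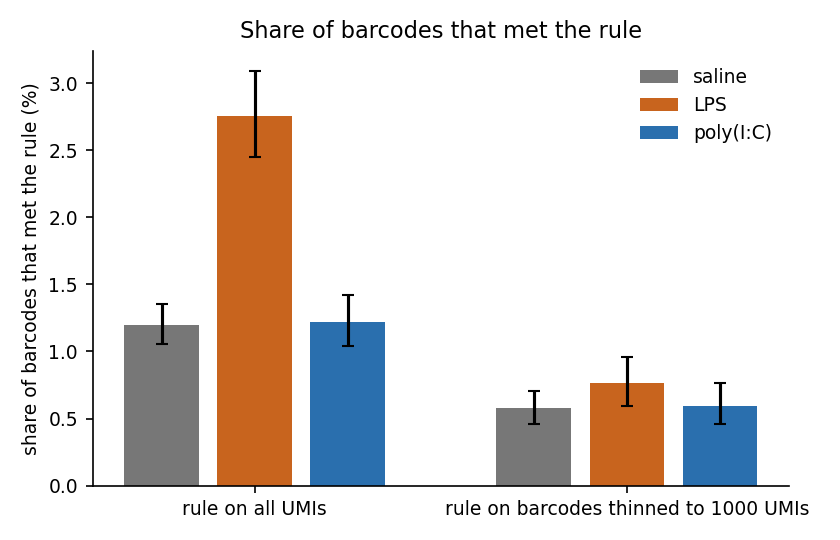
Share of barcodes that met the rule (%), by library, on all UMIs and after thinning each barcode to 1000 UMIs; error bars are exact 95% binomial intervals. The LPS bar stands at 2.75% on all UMIs and at 0.763% after thinning, where the 3 intervals overlap.

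The label of the set, subcortical GABAergic neurons outside the striatum, was borne out by its markers in part only. Against the other Gad+ nuclei (7308 barcodes with a Gad1 or Gad2 UMI, no UMI of Slc17a7 or Slc17a6, and not selected, which include striatal and cortical neurons), the 9 GABAergic markers summed to 891, 799 and 1087 CPM in the selected nuclei and to 1126, 936 and 1200 CPM in the others. The vesicular transporter Slc32a1 had only 10, 19 and 4 UMIs, or 19.2, 22.6 and 15.9 CPM. Most transcription factors that mark hypothalamic neurons were undetected: Otp, Six6, Rax, Nkx2-2, Nkx2-4, Hmx2 and Bsx had 0 UMIs in all 3 libraries, where 3 UMIs would be 5.77, 3.57 and 11.9 CPM. The whole hypothalamic and preoptic list of 17 genes nonetheless summed to 598, 610 and 558 CPM, above the 499, 460 and 474 CPM of the other Gad+ nuclei. Of the 17 midbrain and hindbrain inhibitory markers, Gata2, Pax7, Pax8, En1, En2, Hoxb3 and Hoxb5 were at 0 in every library, and the list summed to 4, 10 and 0 UMIs. Septal markers were somewhat above the other Gad+ nuclei, with list sums of 964, 1125 and 1155 CPM against 809, 981 and 926 CPM, and so were central amygdala and bed nucleus markers (1018, 1069 and 1299 CPM against 776, 928 and 878 CPM). Adarb2, an RNA-editing family gene of cortical interneurons, was as high as in the other Gad+ nuclei, at 2091, 2314 and 1916 CPM against 2255, 2220 and 2166 CPM. The selected nuclei are therefore named by their rule and their leading genes below.

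Genes outside the rule were ranked by their level against the other Gad+ nuclei; these nuclei were chosen on their RNA, so the ranking describes them. Of 6308 genes with at least 30 UMIs over the selected nuclei, 8 outside the rule were at least 2-fold higher in each of the 3 libraries. Prkcd, a protein kinase C gene known from central amygdala neurons, was at 28.9, 23.8 and 23.9 CPM against 11.2, 7.86 and 5.69 CPM. Calcr, the calcitonin receptor, was at 25, 51.2 and 27.9 CPM against 12.0, 7.49 and 10.8 CPM. Ano1, a calcium-activated chloride channel, was at 44.3, 54.8 and 83.6 CPM against 20.7, 21.0 and 15.5 CPM. The other members of this group were Ddc (the decarboxylase of monoamine synthesis), Vwa5b1, Lama3, Ankfn1 and Pnck. The prolactin receptor Prlr followed at 51.9, 85.7 and 75.7 CPM against 26.6, 18.2 and 16.8 CPM. The serotonin receptor Htr2c stood at 425, 437 and 494 CPM against 218, 262 and 269 CPM.

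At the other end, 12 genes were at or below 0.5 times the level of the other Gad+ nuclei in each library, among them the striatal genes Rgs9 and Drd2, the cortical interneuron gene Eya4 and the growth factor receptor Egfr. Rgs9, a brake on G protein signalling in striatal neurons, was at 44.3, 33.3 and 23.9 CPM against 144, 210 and 215 CPM. Drd2, the dopamine receptor, was at 15.4, 26.2 and 31.9 CPM against 52.1, 86.8 and 87.6 CPM. Erbb4, the neuregulin receptor of interneurons, was close to this bound at 2374, 2840 and 2605 CPM against 4836, 5561 and 5002 CPM.

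Clustering of the 705 nuclei, with the response gene lists left out, gave 6 subgroups, which differed in kind. A cluster's own genes are not a test, so they are given as a description. Subgroup 2 was the main one, with 307 nuclei and the lowest median depth (1650 UMIs), and was led by Cdh23, Ebf1, the estrogen receptor Esr1 (55.0 CPM against 15.3 CPM in the other subgroups) and Prlr (122 CPM against 46.8 CPM). Cxcl12 and Cst3, which are abundant in vascular and glial cells, were also among its leading genes. Subgroup 0, with 111 nuclei, was led by Eya4, Col19a1, Egfr, Reln (669 CPM against 116 CPM) and Cnr1, genes of cortical interneurons, and held Sox6 at 795 CPM. Subgroup 3, with 90 nuclei, was led by Chat, the enzyme of acetylcholine synthesis (101 CPM against 0.71 CPM, with 20 UMIs there; over the whole selection it had 5 UMIs in 3 saline nuclei, 4 in 2 LPS nuclei and 12 in 6 poly(I:C) nuclei), Prima1, Megf10, Megf11, Gpc5 and the basal forebrain factor Lhx8 (71.0 CPM against 7.78 CPM). It also had the highest level of Klhl1, at 594 CPM [491 to 711].

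Subgroup 5, with 83 nuclei, was led by Prdm16 (349 CPM against 4.93 CPM), Ano2 (491 CPM against 12.0 CPM), Myo5b, Ano1, Prkcd and the cation channel Trpc4 (1320 CPM against 186 CPM). Of the 10 septal markers in the tables, 9 were at least 2-fold above the other subgroups there with 10 CPM added to both, so these nuclei were septum-like. Most of the Ano1 and Prkcd UMIs that set the whole selection apart lay in this subgroup: 62 of 90 for Ano1 and 32 of 41 for Prkcd. Subgroup 1, with 85 nuclei, was led by Chst9, Pdzrn3 and the synaptic vesicle gene Sv2b; 34.1% of its barcodes were called doublets, against 0.977% in subgroup 2. Subgroup 4, with 29 nuclei, was led by Bcas1, Mog, Aspa, Mobp and Mbp, the myelin genes of oligodendrocytes, and all 8 mature oligodendrocyte markers were at least 2-fold above the other subgroups.

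The shares of the subgroups varied between libraries, with intervals that overlapped. Subgroup 2 held 37.1% [31.2 to 43.3] of the saline nuclei, 48.4% [42.5 to 54.4] of the LPS nuclei and 45.0% [37.1 to 53.1] of the poly(I:C) nuclei. Subgroup 0 held 19.1%, 15.2% and 11.2% in that order, and subgroup 1 held 16.0%, 11.1% and 7.50%. Subgroup 5 held 9.38%, 11.8% and 15.6%, and subgroup 3 held 14.1%, 9.34% and 16.9%. The intervals of each pair of libraries overlapped for all 6 subgroups. For subgroup 1, those of saline and poly(I:C) shared only a narrow stretch (11.7 to 21.1% and 3.94 to 12.7%). For subgroup 2 the same held for saline and LPS.

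**Figure D3:**
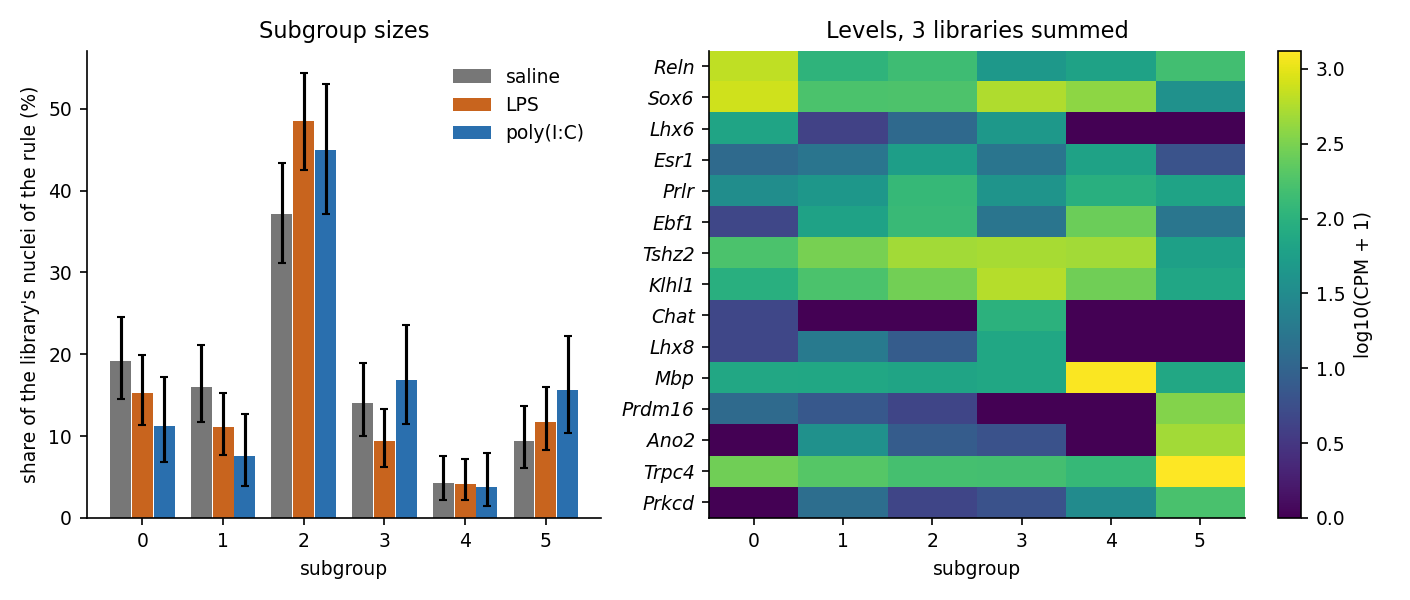
Left, share of each library's selected nuclei in each of the 6 subgroups (%), with exact 95% binomial intervals; right, levels of 15 genes in each subgroup, as log10(CPM + 1) over the 3 libraries. Subgroup 2 holds 37.1% to 48.4% of the nuclei, and Chat, Mbp and Prdm16 each stand out in 1 subgroup.

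Interferon-stimulated genes separated the poly(I:C) library from the other 2. Summed over the 53 listed genes found in the tables, they had 350 CPM with saline (182 UMIs), 325 CPM with LPS (273 UMIs) and 916 CPM with poly(I:C) (230 UMIs). The poly(I:C) sum was 2.62 times that of saline [2.14 to 3.20], and the LPS sum was 0.93 times that of saline [0.77 to 1.13]. LPS against poly(I:C) gave 0.35 [0.30 to 0.42]. Few members had at least 20 UMIs over the 2 libraries of a comparison, the minimum set for calling a gene at least 2-fold higher or lower. With poly(I:C) 3 of 6 such members were higher and 0 lower, where 1.8% of all 5768 genes measured were higher and 4.77% lower. With LPS 0 of 4 were higher or lower, where 2.2% of all 7673 genes were higher and 1.84% lower. Samd9 (5 and 16 UMIs) and Eif2ak2 (7 and 14 UMIs) reached that minimum only through the poly(I:C) library, where they were high, so this count and the medians are a description. The median log2 ratio of these members was 1.07 with poly(I:C) and -0.15 with LPS, beside -0.03 and -0.00 over all genes measured.

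Several antiviral effectors were nearly absent with saline and had more UMIs with poly(I:C). Herc6, a ligase that attaches the ubiquitin-like protein Isg15, had 0 UMIs with saline, 16 with LPS and 17 with poly(I:C), or 0, 19.1 and 67.7 CPM. Against the limit of 3 UMIs in the saline library, Herc6 was at least 11.7-fold higher with poly(I:C) and at least 3.30-fold higher with LPS. Its 16 LPS UMIs came from 13 nuclei and its 17 poly(I:C) UMIs from 15 nuclei. With fewer than 20 UMIs over either pair with saline, Herc6 was below the minimum for a call. The other Gad+ nuclei had Herc6 at 10.6, 13.7 and 81.0 CPM, so there it was present with saline too. Usp18, the protease that removes Isg15 and dampens interferon signalling, had 0, 2 and 11 UMIs and was at least 7.59-fold higher with poly(I:C). The dynamin-like GTPase Mx1 had 0, 0 and 8 UMIs, at least 5.52-fold higher with poly(I:C). Mx2 had 0, 0 and 6 UMIs, and Ifit3 and Rsad2 had 0, 0 and 5 UMIs each. Parp9 had 0, 1 and 8 UMIs, and Ifi44 had 0, 3 and 7 UMIs. Other members of the list did not show this: Isg15, Oas2, Oas3, Ifitm3, Irf7, Irf9 and Zbp1 had 0 UMIs in all 3 libraries. Bst2 had 1 UMI in each library, Cmpk2 had 4, 5 and 3 UMIs, and Ifi27 had 6, 7 and 2 UMIs.

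Some other members, among them sensors and signalling genes, were detected with saline too. Samd9, an antiviral translation inhibitor, had 5, 3 and 16 UMIs, or 9.62, 3.57 and 63.7 CPM, and was 6.63-fold higher with poly(I:C) than with saline [2.32 to 23.1]. Eif2ak2, the double-stranded RNA kinase that blocks translation, had 7, 10 and 14 UMIs, or 13.5, 11.9 and 55.8 CPM, and was 4.14-fold higher [1.56 to 12.1]. Both genes had LPS levels below those of saline. Tdrd7, a tudor domain gene that restricts autophagy in infected cells, had 30.8, 32.1 and 71.7 CPM and was 2.33-fold higher with poly(I:C) [1.12 to 4.88]. The RNA sensor Ifih1 had 1, 2 and 10 UMIs, with a poly(I:C) to saline ratio of 20.7 [2.95 to 898]. Stat2 had 23.1, 17.9 and 43.8 CPM, a ratio of 1.90 [0.76 to 4.70] that was not called. Adar, the RNA-editing enzyme, was the list's main source of UMIs with saline, at 82 of 182, and its levels of 158, 117 and 131 CPM were not higher with either agent. It supplied 98 of the 273 list UMIs with LPS and 33 of the 230 with poly(I:C). The list's ratios, here and in other nuclei, were not recomputed without Adar.

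**Figure D4:**
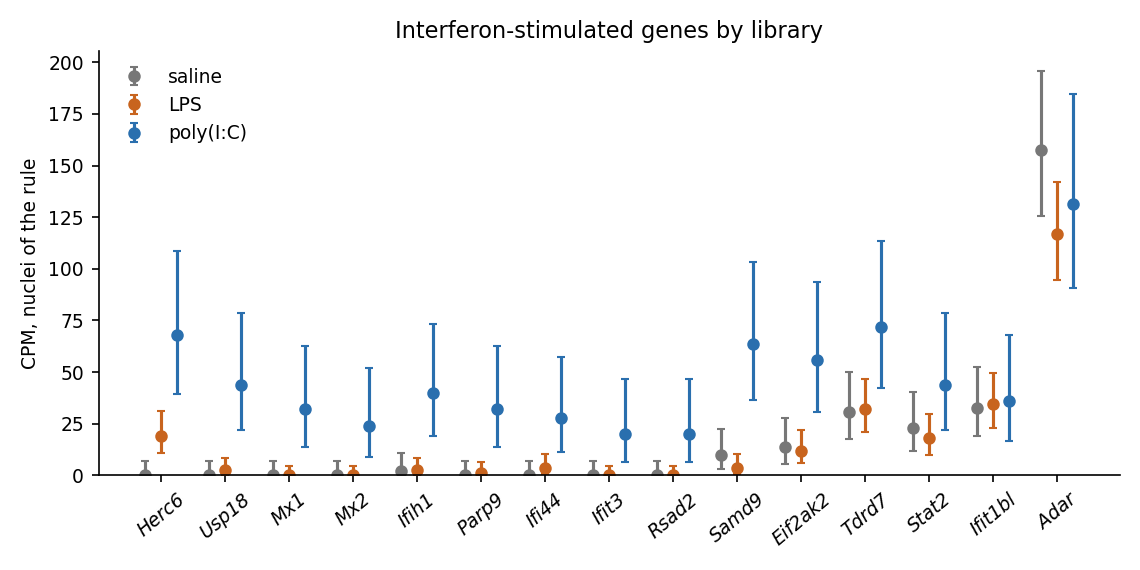
Levels (CPM) of 15 interferon-stimulated genes in the selected nuclei, 1 colour per library, with exact 95% Poisson intervals. Herc6 to Rsad2 are at or near 0 with saline and reach 19.9 to 67.7 CPM with poly(I:C), while Ifit1bl is level and Adar is not higher with either agent.

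The promoters of 4 of these genes are shown because their UMIs were higher with poly(I:C) and the windows hold the interferon-stimulated response element. They are RefSeq windows of 300 bases on build GRCr8, from 250 bases before to 50 after the gene's start, written 5′ to 3′ on the gene's strand. Capitals mark GAAANNGAAA on either strand; on the opposite strand it reads TTTCNNTTTC, and overlapping matches run together. The windows are chr4:32138909-32139208 (minus strand) for Samd9, chr6:21940904-21941203 (plus strand) for Eif2ak2, chr3:67683919-67684218 (minus strand) for Ifih1 and chr1:241527076-241527375 (plus strand) for Ifit3.
Samd9: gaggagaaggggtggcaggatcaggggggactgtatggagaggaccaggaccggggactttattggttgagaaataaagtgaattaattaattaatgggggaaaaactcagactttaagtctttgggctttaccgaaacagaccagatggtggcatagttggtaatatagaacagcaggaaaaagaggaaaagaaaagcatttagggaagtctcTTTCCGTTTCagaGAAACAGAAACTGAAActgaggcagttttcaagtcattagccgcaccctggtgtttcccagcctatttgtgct
Eif2ak2: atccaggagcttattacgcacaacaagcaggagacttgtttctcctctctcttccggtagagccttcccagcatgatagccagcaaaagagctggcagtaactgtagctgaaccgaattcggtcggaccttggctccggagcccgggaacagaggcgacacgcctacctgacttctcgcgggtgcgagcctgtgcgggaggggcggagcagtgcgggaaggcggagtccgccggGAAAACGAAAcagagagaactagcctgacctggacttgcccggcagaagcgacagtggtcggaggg
Ifih1: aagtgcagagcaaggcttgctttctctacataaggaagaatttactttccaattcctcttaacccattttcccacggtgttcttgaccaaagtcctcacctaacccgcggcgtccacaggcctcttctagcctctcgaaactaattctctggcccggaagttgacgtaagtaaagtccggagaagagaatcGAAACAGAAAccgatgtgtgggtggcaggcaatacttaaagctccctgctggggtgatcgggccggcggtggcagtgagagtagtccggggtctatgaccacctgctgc
Ifit3: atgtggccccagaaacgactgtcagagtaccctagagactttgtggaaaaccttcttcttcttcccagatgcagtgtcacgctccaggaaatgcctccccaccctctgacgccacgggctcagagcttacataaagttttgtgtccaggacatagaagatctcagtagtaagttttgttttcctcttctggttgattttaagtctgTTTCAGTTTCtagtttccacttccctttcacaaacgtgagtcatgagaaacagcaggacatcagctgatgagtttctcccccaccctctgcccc
Samd9 had 3 matches in its window and each of the others had 1. Of all 33469 promoter windows in that table, 3.92% held at least 1 match. Of the 46 windows that matched a symbol of the interferon-stimulated list, 29 (63.0%) did. Herc6, Mx1, Parp9, Stat2 and Tdrd7 had no match, which says only that these letters are not in those windows.

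The poly(I:C) library's interferon level was shared with other neurons. The same list was 3.10-fold higher with poly(I:C) than with saline in the other Gad+ nuclei [2.92 to 3.29] and 3.06-fold higher in 2017 striatal projection nuclei [2.72 to 3.45], and the log2 differences from the selected nuclei, -0.24 [-0.54 to 0.05] and -0.23 [-0.56 to 0.10], spanned 0. In 196 nuclei with the 6 genes of the rule and Slc17a6 but no Gad UMI, which are glutamatergic, the ratio was 5.24 [3.43 to 8.24]. The selected nuclei lay below these, with a log2 difference of -1.0 [-1.66 to -0.34]. With LPS the other Gad+ nuclei had a ratio of 1.15 [1.07 to 1.22], above the selected nuclei's 0.93 (log2 difference -0.30 [-0.59 to -0.02]). Among the subgroups the poly(I:C) ratio ran from 1.80 [1.26 to 2.56] in subgroup 2 to 3.67 [2.27 to 6.12] in subgroup 3, and it was above 1 in all 6. The chemokine genes Cxcl11 and Cxcl10 also differed between the libraries: Cxcl11 had 0, 10 and 7 UMIs in the selected nuclei and 0, 973 and 2729 UMIs over all barcodes, and Cxcl10 had 0, 2 and 5 UMIs. The part of RNA from other cells in the interferon-stimulated UMIs was not tested.

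Among other interferon-linked genes, Stat4 and Rnf213 were higher with poly(I:C) and the receptor and signalling genes were level. Stat4, a signal transducer downstream of type I interferon, had 5, 18 and 21 UMIs, or 9.62, 21.4 and 83.6 CPM, and was 8.70-fold higher with poly(I:C) than with saline [3.19 to 29.5]. Rnf213, a large ubiquitin ligase of the antiviral response, had 9.62, 15.5 and 59.7 CPM, 6.21-fold higher [2.15 to 21.8]. Stat4 (5 and 21 UMIs) and Rnf213 (5 and 15 UMIs) reached the minimum of 20 UMIs only through the poly(I:C) library, where they were high. These calls are therefore a description. Both genes were also called lower with LPS than with poly(I:C). In that comparison Rnf213 (13 and 15 UMIs) again reached the minimum only through the poly(I:C) library. The interferon receptor and signalling list was level, at 437, 452 and 454 CPM; 0 of 9 measured members were higher with LPS and 1 was lower, Ifnar2, the receptor subunit, at 44.3 and 21.4 CPM (ratio 0.48 [0.25 to 0.94]). Class I antigen presentation genes had only 31, 30 and 26 UMIs, or 59.6, 35.7 and 104 CPM. Their LPS ratio of 0.60 [0.35 to 1.02] lay below the 1.44 [1.20 to 1.72] of the other Gad+ nuclei, with a log2 difference of -1.26 [-2.03 to -0.50].

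Receptors for hormones and peptides were higher with LPS and poly(I:C) in the selected nuclei. These receptors let subcortical neurons read steroid, pituitary and peptide signals. Their sum was 1528 CPM with saline, 1787 CPM with LPS and 1757 CPM with poly(I:C), ratios of 1.17 [1.07 to 1.28] and 1.15 [1.02 to 1.29]. The other Gad+ nuclei had ratios of 0.97 and 0.98, and the log2 differences were 0.27 [0.14 to 0.41] and 0.23 [0.05 to 0.41]. With LPS 4 of 21 measured receptors were higher and 0 lower, against the 2.2% and 1.84% of all genes given above, and with poly(I:C) 2 of 16 were higher and 0 lower, against 1.8% and 4.77%. Esr1 (7 and 26 UMIs) and Esr2 (6 and 27 UMIs) reached the minimum with LPS only through the LPS library. With poly(I:C), Esr1 (7 and 14 UMIs) reached it only through the poly(I:C) library. The counts and the medians with both agents are therefore a description. The median log2 ratio of the measured receptors was 0.32 with LPS and 0.21 with poly(I:C).

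The called receptors were those of estrogen, substance P and calcitonin. Esr1, estrogen receptor alpha, had 7 UMIs with saline, 26 with LPS and 14 with poly(I:C), or 13.5, 31.0 and 55.8 CPM. Its ratios were 2.30 [0.97 to 6.27] and 4.14 [1.56 to 12.1]. The 14 poly(I:C) UMIs of Esr1 came from 8 nuclei, with 4 in a single nucleus. In subgroup 4, the subgroup led by myelin genes, lay 4 of the 14. The Esr1 ratio was not recomputed without that nucleus. Esr2, estrogen receptor beta, had 6, 27 and 7 UMIs, a ratio of 2.78 with LPS [1.13 to 8.25]. Tacr1, the substance P receptor, had 15, 49 and 23 UMIs, or 28.9, 58.3 and 91.6 CPM, ratios of 2.02 [1.11 to 3.88] and 3.17 [1.59 to 6.54]. Calcr had 13, 43 and 7 UMIs, a ratio of 2.05 with LPS [1.08 to 4.15], and 9 of the 43 LPS UMIs lay in a single nucleus, without which the ratio was 1.62 [0.83 to 3.35]. The LPS ratio of Calcr was 0.62 [0.06 to 4.32] among nuclei selected after thinning to 1000 UMIs. It was 0.92 [0.34 to 2.73] among those with at least 2 Gad UMIs, and both intervals spanned 1. In the other Gad+ nuclei the LPS ratios of Esr1, Esr2, Tacr1 and Calcr were 0.68, 1.02, 0.99 and 0.63. With poly(I:C) those nuclei had ratios of 1.54 [1.02 to 2.33] for Esr1 and 1.25 [1.02 to 1.53] for Tacr1, above 1 as in the selected nuclei. In the glutamatergic nuclei with Slc17a6 the LPS ratios were 1.5 [0.31 to 14.3] for Esr1, 2.50 [0.58 to 22.5] for Tacr1 and 2.33 [0.54 to 21.2] for Calcr, each resting on 2 saline UMIs. Of the LPS UMIs, 19 of the 26 of Esr1 and 26 of the 43 of Calcr lay in subgroup 2. That subgroup held 37.1% of the saline and 48.4% of the LPS nuclei, with intervals that overlapped. Within subgroup 2 Esr1 was at 21.8, 56.9 and 96.9 CPM, the LPS ratio of Tacr1 was 0.91, and the receptor list's poly(I:C) ratio was 0.99 [0.79 to 1.24].

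Prlr had 51.9, 85.7 and 75.7 CPM, an LPS ratio of 1.65 [1.05 to 2.67] that stayed below the 2-fold call. The glucocorticoid receptor Nr3c1 was at 164, 164 and 135 CPM, and the mineralocorticoid receptor Nr3c2 at 312, 388 and 347 CPM. The leptin receptor Lepr had 27, 42 and 8 UMIs, and the progesterone receptor Pgr 27, 33 and 13 UMIs. These 4 receptors differed by less than their counting intervals except Nr3c2 with LPS (1.25 [1.03 to 1.51]). Igf1r, the insulin-like growth factor 1 receptor, had 85, 185 and 57 UMIs, the most of the receptor list after Nr3c2. It was not called, and its part in the list's higher sums was not computed.

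GABA and glycine receptor subunits, which carry the inhibitory input of these neurons, had sums slightly above saline with both agents, and none was called. The list holds Gabrg1 and Glra3, which chose the nuclei. Without them its sum was 5149, 5850 and 5652 CPM, ratios of 1.14 [1.08 to 1.19] with LPS and 1.10 [1.03 to 1.17] with poly(I:C). On the whole list 0 of 14 measured subunits were at least 2-fold higher or lower in either comparison. Gabrb1, a common beta subunit, had 1160, 1394 and 1314 CPM. Glra3, a gene of the rule, had a poly(I:C) ratio of 1.68 [1.23 to 2.29]. Without the 2 genes of the rule the other Gad+ nuclei had list ratios of 1.09 and 1.05, and the log2 differences from them, 0.06 [-0.01 to 0.14] and 0.06 [-0.04 to 0.16], spanned 0. GABA synthesis, release and uptake genes, taken without Gad1 and Gad2, had ratios of 1.06 [0.90 to 1.24] and 0.94 [0.75 to 1.17]. Gad2, used by the rule, had 489, 344 and 554 CPM.

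Immediate early genes, which neurons switch on with activity, were lower with LPS: 312 CPM with saline, 239 CPM with LPS and 351 CPM with poly(I:C), ratios of 0.77 [0.62 to 0.95] and 1.12 [0.86 to 1.47]. The synaptic scaffold gene Homer1 supplied 108, 148 and 59 of their 162, 201 and 88 UMIs, at 208, 176 and 235 CPM. Bdnf, the neurotrophin, had 9, 2 and 2 UMIs, an LPS ratio of 0.14 [0.01 to 0.66]. Fos had 3, 2 and 2 UMIs. The other Gad+ nuclei had list ratios of 0.88 and 1.09, and the log2 differences from them, -0.20 [-0.51 to 0.12] and 0.04 [-0.34 to 0.43], spanned 0.

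Inflammatory lists held few UMIs. NF-kB targets had ratios of 1.15 [0.85 to 1.58] with LPS and 1.21 [0.79 to 1.83] with poly(I:C), with 0 of 2 and 0 of 1 measured members called. Acute phase and Stat3 targets had 1.20 [0.87 to 1.69] and 0.96 [0.58 to 1.56]. Pyrogen and cytokine receptors had 0.89 [0.78 to 1.03] and 1.04 [0.87 to 1.25]; Il1rapl2, a synaptic member of the interleukin receptor family, supplied 278, 400 and 150 of their 357, 516 and 180 UMIs, and Il1r1, the interleukin 1 receptor, had 1, 4 and 1. The fever receptor Ptger3 had 3, 6 and 2 UMIs. Cp, the acute phase copper protein ceruloplasmin, had 1 UMI with saline and 15 with LPS, a ratio of 9.28 [1.43 to 391] that was below the minimum of 20 UMIs for a call.

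**Figure D5:**
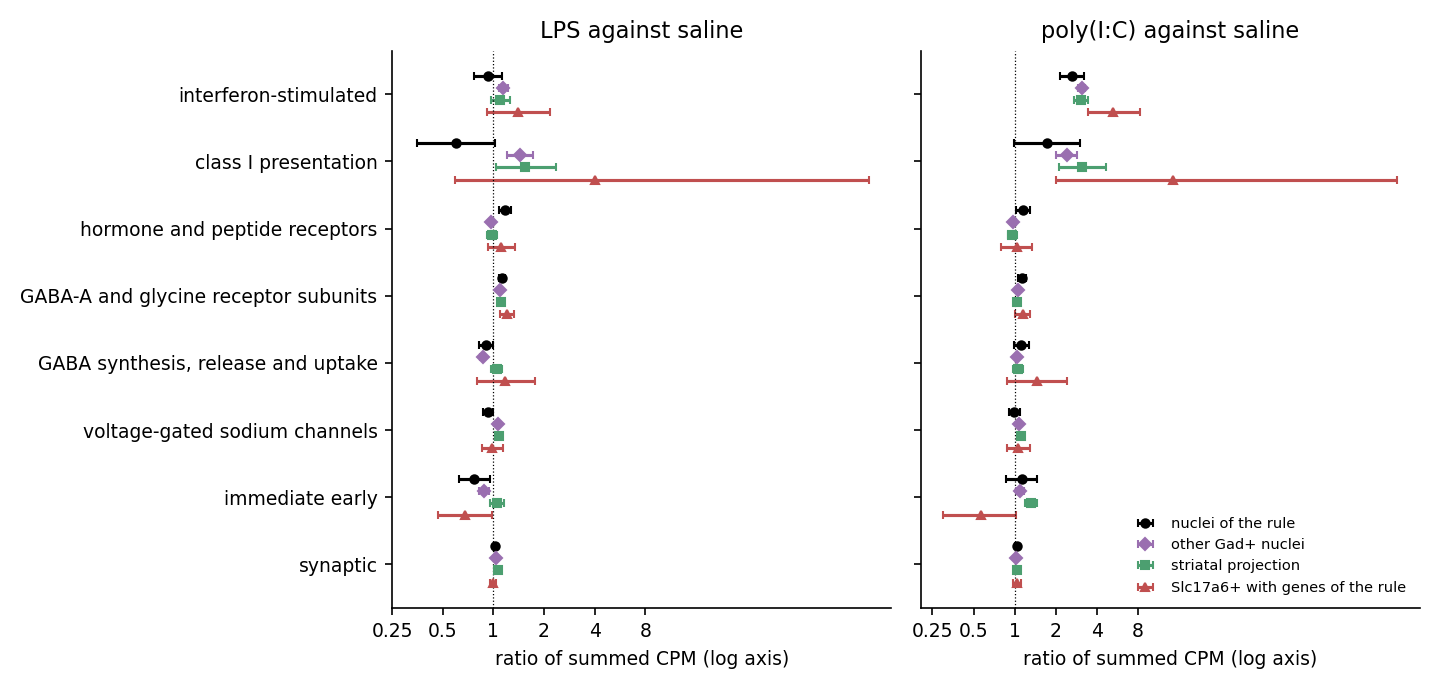
Ratio of summed CPM (log axis) for 8 gene lists, LPS against saline (left) and poly(I:C) against saline (right), in the selected nuclei and 3 comparison groups, with exact 95% counting intervals. The interferon-stimulated list stands at 2.62 with poly(I:C) and 0.93 with LPS in the selected nuclei, and most other lists lie near 1; the lists of GABA-A and glycine receptors, GABA synthesis and sodium channels are drawn whole, with the genes of the rule they hold.

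Circadian, glutamate receptor, sodium channel, synaptic and chaperone genes were close to level. With LPS their list ratios lay between 0.93 (voltage-gated sodium channels) and 1.03 (glutamate receptor subunits), and with poly(I:C) between 0.997 (voltage-gated sodium channels) and 1.20 (heat shock and ER chaperones). With poly(I:C) 1 of 11 measured circadian genes was higher and 1 lower, and 1 of 19 glutamate receptor and 1 of 20 synaptic genes were lower. Beside the background of 1.8% higher and 4.77% lower over all genes, nothing is read from such single calls. None of 9 sodium channels and 8 chaperones was called. The called members with poly(I:C) were the clock gene Per2 (higher, 26.9 and 55.8 CPM), the clock output factor Hlf (lower, 40.4 and 19.9 CPM), the glutamate receptor Grm3 (lower, 310 and 151 CPM) and the vesicle priming gene Unc13a (lower, 75.0 and 27.9 CPM). The intervals of Per2 [0.91 to 4.68] and Hlf [0.15 to 1.34] spanned 1. Grm3 had 161 and 38 UMIs and a ratio of 0.49 [0.33 to 0.70], beside 1.06 in the other Gad+ nuclei. With LPS the called members of these lists were limited to the chaperone Hspa8 (lower, 23.1 and 9.53 CPM), with an interval that spanned 1 [0.15 to 1.10]. The sodium channel list holds Scn9a, and without that gene its ratios were 0.94 [0.87 to 1.02] and 0.97 [0.87 to 1.07], with log2 differences from the other Gad+ nuclei of -0.17 [-0.29 to -0.06] and -0.15 [-0.31 to 0.0045]. Imprinted genes, the family of Nnat, had ratios of 1.05 [0.96 to 1.16] and 1.05 [0.92 to 1.20] without Nnat, with no member called.

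Across all genes measured, 169 were at least 2-fold higher and 141 lower with LPS than with saline. Of these, 74 and 90 had an interval that left out 1, so many calls were within counting error. Among the genes with the strongest bounds the kinase Lyn had 3 UMIs with saline and 35 with LPS (ratio 7.22 [2.28 to 36.7]), but its LPS UMIs came from 12 nuclei and 24 of its UMIs over the 3 libraries lay in subgroup 4, the subgroup led by myelin genes. Without the nucleus with most Lyn UMIs the ratio was 4.98 [1.51 to 25.8], and the other Gad+ nuclei had 2.06 [1.45 to 2.94]. Tmem147, an ER membrane protein, had 0 and 20 UMIs, and Polr3f, an RNA polymerase III subunit, had 4 and 33 UMIs (ratio 5.11 [1.82 to 19.8]). In the other Gad+ nuclei the ratios of Tmem147 and Polr3f were 1.12 and 1.08. Lyn, Tmem147 and Polr3f reached the minimum of 20 UMIs only through the LPS library, where they were high. Their calls are therefore a description. The mitochondrial subunit Ndufb2 (3.09 [1.43 to 7.65]), the lysosomal protein Lamp1 (2.85 [1.42 to 6.33]) and the protein kinase D gene Prkd1 (2.10 [1.39 to 3.28]) were also higher; the other Gad+ nuclei had 0.996, 1.16 and 1.69 [1.54 to 1.86]. Among nuclei selected after thinning to 1000 UMIs, Polr3f, Lamp1 and Prkd1 had LPS ratios of 0.83 [0.07 to 7.21], 0.93 [0.14 to 5.49] and 0.72 [0.24 to 1.99]. These intervals spanned 1, so no change of direction is read from them.

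Genes abundant in vascular and glial cells were among the lower genes with LPS, beside neuronal ones. Rims4, a presynaptic scaffold gene, had 17 UMIs with saline and 5 with LPS (0.18 [0.05 to 0.51]), and the vesicle fusion gene Otof had 26 and 12 (0.29 [0.13 to 0.59]). Their ratios in the other Gad+ nuclei were 0.88 and 0.90. Among nuclei selected after thinning to 1000 UMIs both stood at 1.24, with intervals of [0.016 to 97.3] and [0.17 to 9.25] that spanned 1. Cxcl12, a chemokine of endothelial cells, had 21 UMIs with saline, 2 with LPS and 0 with poly(I:C), an LPS ratio of 0.059 [0.0067 to 0.241]. Cst3, a secreted protease inhibitor abundant in glia, had 52, 27 and 5 UMIs, ratios of 0.32 [0.19 to 0.52] and 0.20 [0.06 to 0.49]. Of the 52 saline UMIs 20 lay in 1 nucleus, without which the ratios were 0.52 [0.30 to 0.89] and 0.32 [0.098 to 0.83]. Without the nuclei that held at least 2 UMIs over glial and endothelial markers, the LPS ratio of Cst3 was 1.04 [0.43 to 2.67]. Sparc, a matrix protein of vessels and glia, had 18, 7 and 1 UMIs. With LPS, Rims4, Otof, Cxcl12 and Sparc reached the minimum of 20 UMIs only through the saline library, where they were high. Their calls are therefore a description. The other Gad+ nuclei had LPS ratios of 0.065 for Cxcl12, 0.51 for Cst3 and 0.28 for Sparc. Over the whole marker lists, all 5 endothelial genes in the tables were detected with saline and LPS and 3 with poly(I:C), summing to 44.3, 14.3 and 15.9 CPM. Mural and fibroblast markers summed to 30.8, 2.38 and 7.97 CPM, with Notch3, Kcnj8, Acta2, Dcn, Col1a1 and Lum at 0 in every library. The part of this RNA in the lower genes was not tested.

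With poly(I:C) 104 genes were higher and 275 lower than with saline, and 59 and 94 of them had an interval that left out 1. The poly(I:C) nuclei also held the fewest UMIs, 251048 against 519751 with saline, and the part of this in the excess of lower calls was not tested. Beside the interferon-linked genes and receptors, the higher genes included the ER protein isomerase Pdia6 (30.8 and 108 CPM, ratio 3.49 [1.82 to 6.94]), the lipid phosphatase Lpin2 (2.61 [1.53 to 4.49]) and the axon guidance cue Ntn1 (3.84 [1.43 to 11.4]). In the other Gad+ nuclei Pdia6 had a ratio of 1.22. Beside Cxcl12 and Cst3, the lower genes were led by Mthfd1l, a mitochondrial folate enzyme, with 39 and 4 UMIs (ratio 0.21 [0.06 to 0.59]), and Alkbh1, a demethylase, with 27 and 2 UMIs (0.15 [0.02 to 0.61]). Their ratios in the other Gad+ nuclei were 0.72 and 0.98.

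LPS and poly(I:C), set against each other without the saline library, differed in the interferon-linked genes among others. Of 6885 genes, 359 were higher with LPS (5.21%) and 137 lower (1.99%), and 94 and 81 of them had an interval that left out 1. Of 6 measured interferon-stimulated members, 4 were lower with LPS and 0 higher. They were Eif2ak2 (0.21 [0.08 to 0.52]), Herc6 (0.28 [0.13 to 0.59]), Stat2 (0.41 [0.17 to 0.98]) and Tdrd7 (0.45 [0.24 to 0.86]). Eif2ak2 (10 and 14 UMIs) and Stat2 (15 and 11 UMIs) reached the minimum only through the poly(I:C) library, so this count is a description. Pdia6 was lower with LPS too (0.38 [0.22 to 0.65]), as was the chaperone Dnaja1 (0.38 [0.20 to 0.73]). The cannabinoid receptor Cnr1, a leading gene of subgroup 0, was higher with LPS, at 181 and 67.7 CPM (2.67 [1.62 to 4.71]). Among nuclei selected after thinning the ratio of Cnr1 was 0.69 [0.14 to 3.19], an interval that spanned 1. Klhl1, a gene of the rule, was at 174 and 386 CPM. The genes higher with LPS included some with 1 or 0 poly(I:C) UMIs: Tmem208 had 35 and 1 (10.5 [1.76 to 425]), Ctxnd1 34 and 1 (10.2 [1.71 to 413]) and Ankzf1 33 and 1 (9.87 [1.65 to 401]), while Myo1e had 23 and 0 and was at least 2.29-fold higher. Tmem208, Ctxnd1, Ankzf1 and Myo1e reached the minimum of 20 UMIs only through the LPS library, so their calls are a description. None of the 20 measured hormone and peptide receptors was called between these libraries.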

How the data were processed

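Nuclei from 4 pooled rats per treatment gave 1 library each. The authors' deposited matrices hold UMI counts per gene and barcode, made with Cell Ranger 7.0.0 on build mRatBN7.2, per the submitters' processing notes; they were used as deposited. The rule was applied to raw counts, and UMIs were summed over the selected nuclei and expressed as CPM. Ratios carry exact conditional 95% intervals and levels exact Poisson intervals; both cover counting error only, since 1 library per treatment allows no test. A gene was measured with at least 20 UMIs over a pair of libraries and called at 2-fold; against 0 UMIs the limit was 3 counts. Named genes were the 10 per direction with the interval bound farthest from 1, called members of the lists, the genes of the rule and up to 4 members per list with most UMIs; other genes were named after their values were seen. The members and lists were chosen with earlier results of these data known. Subgroups came from Leiden clustering (scanpy 1.11.5, leidenalg 0.10.2) without the response lists. Doublets were called with scanpy's Scrublet and kept: 26, 9 and 7 of the selected saline, LPS and poly(I:C) nuclei. Scripts were tested on simulated data. Alternatives covered the rule, depth, normalization, minimum UMIs and subgroups, the last added after seeing the data.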

Additional observations from a re-analysis of the deposited data

How the results depend on the processing

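No paired analysis was possible because each treatment has 1 library. With the rule applied after thinning to 1000 UMIs, the selected shares were 0.576%, 0.763% and 0.596% (saline, LPS, poly(I:C)). The counts of genes higher and lower were then 52 and 57 (LPS against saline), 50 and 62 (poly(I:C) against saline) and 52 and 40 (LPS against poly(I:C)). Ratios that crossed 1 there were, with LPS against saline, synaptic genes 0.966, Calcr 0.620, Ddc 1.24, Fam161b 2.48, Lamp1 0.930, Otof 1.24, Polr3f 0.826, Prkd1 0.723 and Rims4 1.24; with poly(I:C) against saline, synaptic genes 0.938 and Hlf 1.44; and Cnr1 0.687 with LPS against poly(I:C). With the selected nuclei thinned, 154 genes were lower with poly(I:C) than saline, and 197 were higher and 73 lower with LPS than poly(I:C); sodium channels (1.02) and Crbn (0.794) with LPS, and synaptic genes (0.9998) with poly(I:C), crossed 1. With at least 1000 detected genes the shares were 2.07%, 3.31% and 1.49%, 593 genes were higher with LPS than poly(I:C), and glutamate receptors stood at 1.0015 in that comparison. With at least 3 UMIs over the 6 genes the shares were 0.614%, 1.77% and 0.679%, and 169 genes were lower with poly(I:C) than saline. With at least 2 Gad UMIs the shares were 0.501%, 1.41% and 0.419%, with 176 such lower genes; interferon-stimulated genes stood at 1.97 (poly(I:C) against saline) and 0.525 (LPS against poly(I:C)), Calcr at 0.922 with LPS and synaptic genes at 0.989 with poly(I:C). Without the selected nuclei that held at least 2 UMIs over glial and endothelial markers, the shares were 0.839%, 2.02% and 1.01%. In that setting 167 genes were lower with poly(I:C), Cst3 stood at 1.04 with LPS and Hlf at 1.03 with poly(I:C). Median-ratio scaling put synaptic genes at 0.999 with poly(I:C). A minimum of 10 UMIs gave 469 and 376, 352 and 682, and 830 and 406 genes higher and lower, in the order of comparisons above; a minimum of 50 gave 21 and 10, 9 and 27, and 52 and 15. In subgroup 2 alone, interferon-stimulated genes stood at 0.696 with LPS and 1.80 with poly(I:C), with 55 genes higher and 115 lower with poly(I:C); Lamp1 (0.773) and Tacr1 (0.906) with LPS, and hormone receptors (0.991) and Per2 (0.846) with poly(I:C), crossed 1. Without Gad1 and Gad2, GABA synthesis genes stood at 1.13 with LPS against poly(I:C), across 1 from the whole list. The settings on subgroups, genes of the rule and single nuclei were chosen after seeing the data. Genes with 0 UMIs in 1 library of the pair (Tmem147, Myo1e, Atp5mc2, Psmc4 and Scyl3) give no ratio to compare. Every ratio that crossed 1 in these settings had a counting interval that spanned 1, so no change of direction is read from it. The cause of these shifts was not tested.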

Other observations

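Neuropeptide genes had few UMIs in the selected nuclei. Summed over 32 genes in the tables, neuropeptides and enzymes of monoamine synthesis had 142 CPM with saline, 140 CPM with LPS and 147 CPM with poly(I:C). With LPS the list ratio was 0.99 [0.73 to 1.34]. Its 1 measured member, Ddc, was called lower, with 14 and 11 UMIs (ratio 0.49 [0.20 to 1.15]), an interval that spanned 1. The cholecystokinin gene Cck had 1, 17 and 2 UMIs, the enkephalin gene Penk 3, 16 and 0, the melanin-concentrating hormone gene Pmch 2, 15 and 1, and the neurotensin gene Nts 2, 6 and 8. These are raw UMIs, and the selected nuclei held 519751, 839823 and 251048 UMIs in that order. Ceruloplasmin (Cp), an acute phase gene, had 1, 15 and 2 UMIs.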
